A study of Homo sapiens with 2 samples.

Results

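The genes described here encode initiator caspases (CASP8 and CASP9), inhibitors of apoptosis (BIRC2, BIRC3, BIRC5 and XIAP), the mitochondrial antagonist of these inhibitors (DIABLO) and a death-associated kinase (DAPK1). They were taken by name, as every probe set that the platform annotation pairs with exactly 1 of these symbols. That gave 21 probe sets for 7 of the 8 genes, among 19775 genes named on the array. The annotation pairs no probe set with BIRC3, which was not analysed here.

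The samples were stably transfected lines made from C33-A, an established carcinoma line of the human cervix. The CA9 line had been transfected with full-length human CA9 cDNA in the vector pcDNA3.0, and the vector line with the empty vector. CA9 encodes carbonic anhydrase IX, a hypoxia-induced enzyme of the tumour cell surface. Both lines were grown with 10% fetal bovine serum and antibiotics, and RNA was taken on the fourth day after seeding. Biotinylated cRNA from 5 µg of total RNA was hybridised to 1 Affymetrix array per line, and the comparison asks which of these genes differ between the CA9 line and its control. Whether each line is 1 clone or a pool of clones is not given in the labels. With 1 array per line no difference can be set against the spread between cultures, so no p-value or error between samples is given.

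Caspases are proteases that are made as inactive precursors and execute apoptosis once cleaved. Caspase-8 is activated at death receptors of the cell surface, and caspase-9 on the apoptosome, which forms when cytochrome c leaves the mitochondrion. XIAP binds and blocks caspases directly, cIAP1 (the product of BIRC2) is a ubiquitin ligase of TNF receptor complexes, and survivin (the product of BIRC5) acts mainly in chromosome segregation. Smac, the product of DIABLO, is released from mitochondria and relieves caspases of inhibition. DAPK1 is a calmodulin-regulated serine/threonine kinase of cell death and autophagy, and its promoter is often methylated in carcinomas, cervical ones included.

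The RefSeq promoter table (build GRCh38.p14) held 17 windows for 7 of the 8 genes, each running from 250 bases before to 50 after an annotated start. BIRC5 had no entry. The first listed window is printed for DAPK1 and BIRC2, which had the 2 largest differences between the lines, and for CASP8, the member that did not pass the intensity floor. CpG dinucleotides, the sites of DNA methylation, are in capitals.
DAPK1 (chr9:87497617-87497916, plus strand): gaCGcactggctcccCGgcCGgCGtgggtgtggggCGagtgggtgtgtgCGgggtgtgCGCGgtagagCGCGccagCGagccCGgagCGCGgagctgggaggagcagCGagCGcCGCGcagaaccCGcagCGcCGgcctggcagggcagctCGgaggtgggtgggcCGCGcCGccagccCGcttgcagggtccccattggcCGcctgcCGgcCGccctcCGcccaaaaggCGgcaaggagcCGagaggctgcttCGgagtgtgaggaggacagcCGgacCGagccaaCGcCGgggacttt
BIRC2 (chr11:102346964-102347263, plus strand): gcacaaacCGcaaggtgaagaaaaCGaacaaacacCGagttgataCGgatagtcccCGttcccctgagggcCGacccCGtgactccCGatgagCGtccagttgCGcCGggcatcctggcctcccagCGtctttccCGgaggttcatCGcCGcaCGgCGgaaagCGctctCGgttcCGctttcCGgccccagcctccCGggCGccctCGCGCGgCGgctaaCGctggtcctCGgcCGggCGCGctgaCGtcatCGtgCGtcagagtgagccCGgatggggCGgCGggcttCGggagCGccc
CASP8 (chr2:201233213-201233512, plus strand): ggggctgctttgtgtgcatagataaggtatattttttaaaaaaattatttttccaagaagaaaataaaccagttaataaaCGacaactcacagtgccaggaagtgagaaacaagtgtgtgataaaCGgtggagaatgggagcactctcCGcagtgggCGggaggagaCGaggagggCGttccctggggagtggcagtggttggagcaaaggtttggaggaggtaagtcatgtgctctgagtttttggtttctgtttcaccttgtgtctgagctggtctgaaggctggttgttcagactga

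The DAPK1 window holds 37 CpG dinucleotides and the BIRC2 window 40, whereas the CASP8 window holds 6. Some windows of members with smaller differences than DAPK1 and BIRC2 were CpG-rich too, but not all. The windows of CASP9 hold 36 and 30, those of DIABLO from 13 to 37 and those of XIAP from 10 to 27. A link between the CpG number and the difference was not tested. The median over 35116 windows of this length was 14. Over all 17 windows of the members the number ran from 5, in another CASP8 window, to 44, in the second BIRC2 window, which overlaps the first. The motif TGACGTCA, the palindrome bound by CREB and ATF factors, was found once in each BIRC2 window and in no other window of the members. It is 1 site, in the stretch that the BIRC2 windows share, and 1.85% of all windows hold the motif. The Sp1-type motif GGGCGG, searched on both strands, was found 8 and 9 times in the windows of CASP9 and 2 times in the printed DAPK1 window, and 45.0% of all windows hold it at least once. The HIF core motif occurs in a pair of forms, both searched on both strands and both absent from the printed BIRC2 and CASP8 windows. The form GCGTG was found once in the printed DAPK1 window, and 36.5% of all windows hold it. The form with A in first place, ACGTG, was not in that window, and 21.4% of all windows hold it. Windows that are not printed also held these forms. GCGTG was found once in the second BIRC2 window and once in the third CASP8 window, and ACGTG once in the second CASP8 window. Windows of CASP9, BIRC3, DIABLO and XIAP held at least 1 of the forms too. All these motifs contain a CpG, so their counts overlap with the CpG count. These matches describe letters in the windows. DNA methylation and factor binding were not measured.

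Differences are given on the log2 scale as the CA9 line minus the vector line, and each gene is represented by its brightest probe set, taken as the mean of both arrays on that scale. The median intensity over all probe sets except controls, 40.8, served as a floor, and genes with at least 1 array above this floor counted as measurable. Of the 7 genes, 6 were measurable. None of the 6 differed by 2-fold or more, against 1.35% of the 13823 measurable genes, of which 0.651% were 2-fold higher and 0.694% 2-fold lower in the CA9 line. The difference was below 0 in 5 of the 6, and the median was -0.33. Over all measurable genes 53.0% lay below 0 and the median was -0.03. DAPK1 was farthest from 0, followed by BIRC2 and XIAP, and BIRC5 was the member above 0.

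**Figure D1:**
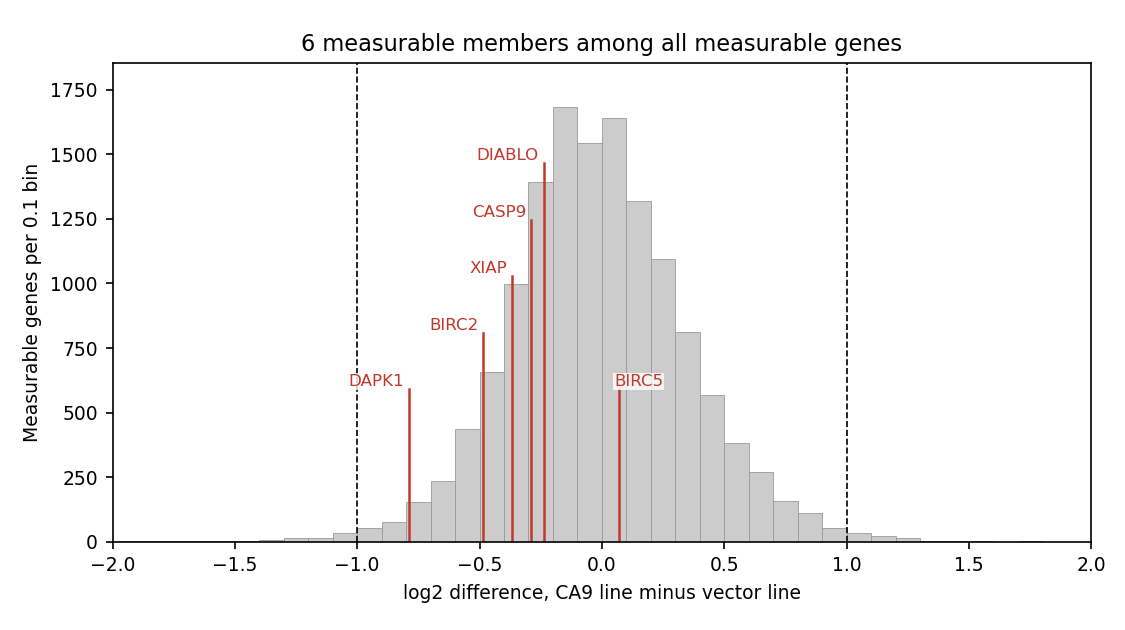
Grey bars count measurable genes by their log2 difference, CA9 line minus vector line, in bins of 0.1, and red lines mark the 6 measurable members. Dashed lines stand at 2-fold. DAPK1 at -0.79 lies nearest to the 2-fold line, and BIRC5 at 0.07 is the member to the right of 0.

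Among the initiator caspases, CASP8 was dim in both lines. Its brightest probe set read 38.0 in the CA9 line against 40.8 in the vector line. The value of the vector line lay 0.015 below the floor, so CASP8 sits just outside the rule, and with no floor its difference was -0.10. The other CASP8 probe sets had intensities of 25.5 against 23.2 and of 10.4 against 10.5, in the order CA9 line and vector line. No CASP8 probe set differed between the lines by as much as 0.31, which is the pooled SD between the probe sets of a gene over 6186 genes. This SD was taken from probe sets above the floor on at least 1 array, so it leaves out those of CASP8. It measures the spread between probe sets, not between cultures.

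CASP9, the caspase of the apoptosome, was above the floor on both arrays. Its brightest probe set read 94.6 in the CA9 line against 115.6 in the vector line, a difference of -0.29. A second one read 93.3 and 87.3, a difference of 0.10. The CASP9 probe sets thus disagreed in sign, and both differences were smaller than the SD between probe sets. The third was below the floor on both arrays, at 19.6 and 20.9.

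The inhibitors of apoptosis had more probe sets, and most lay lower in the CA9 line. Of 10 probe sets above the floor for BIRC2, BIRC5 and XIAP, 8 had a difference below 0, against 53.0% of all probe sets above the floor. XIAP gave 5 of the 10 and BIRC5 4, and probe sets of 1 gene are not separate observations. BIRC2 had a single probe set, which read 275 in the CA9 line against 385 in the vector line. This is 1.40-fold lower, a difference of -0.48, and 8.21% of measurable genes had a lower value. BIRC2 lies next to BIRC3 in the RefSeq gene order on chromosome 11.

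XIAP had 7 probe sets, and 6 of them had a difference below 0. The brightest read 240.5 in the CA9 line against 310.1 in the vector line, a difference of -0.37. The next read 198 and 219.6, a difference of -0.15. The probe sets named _x_at, which can also detect related transcripts, read 105 against 149.8 and 96.1 against 118, differences of -0.52 and -0.30. The exception was a probe set at 72.2 against 70.5, a difference of 0.03. The remaining 2 XIAP probe sets, at -0.50 and -0.30, were below the floor on both arrays. The size of the XIAP difference therefore depended on the probe set, from -0.52 to 0.03 among those above the floor.

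The probe sets of BIRC5, all above the floor, also disagreed in sign. The brightest, which is named _s_at, read 993 in the CA9 line against 947 in the vector line, a difference of 0.07. The 3 others were lower in the CA9 line. They read 289 against 379, 135 against 185 and 128 against 169, differences of -0.39, -0.45 and -0.41. The sign given for BIRC5 is thus that of 1 probe set in 4. The average over its probe sets was -0.29, and without probe sets named _x_at or _s_at the difference was -0.45.

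**Figure D2:**
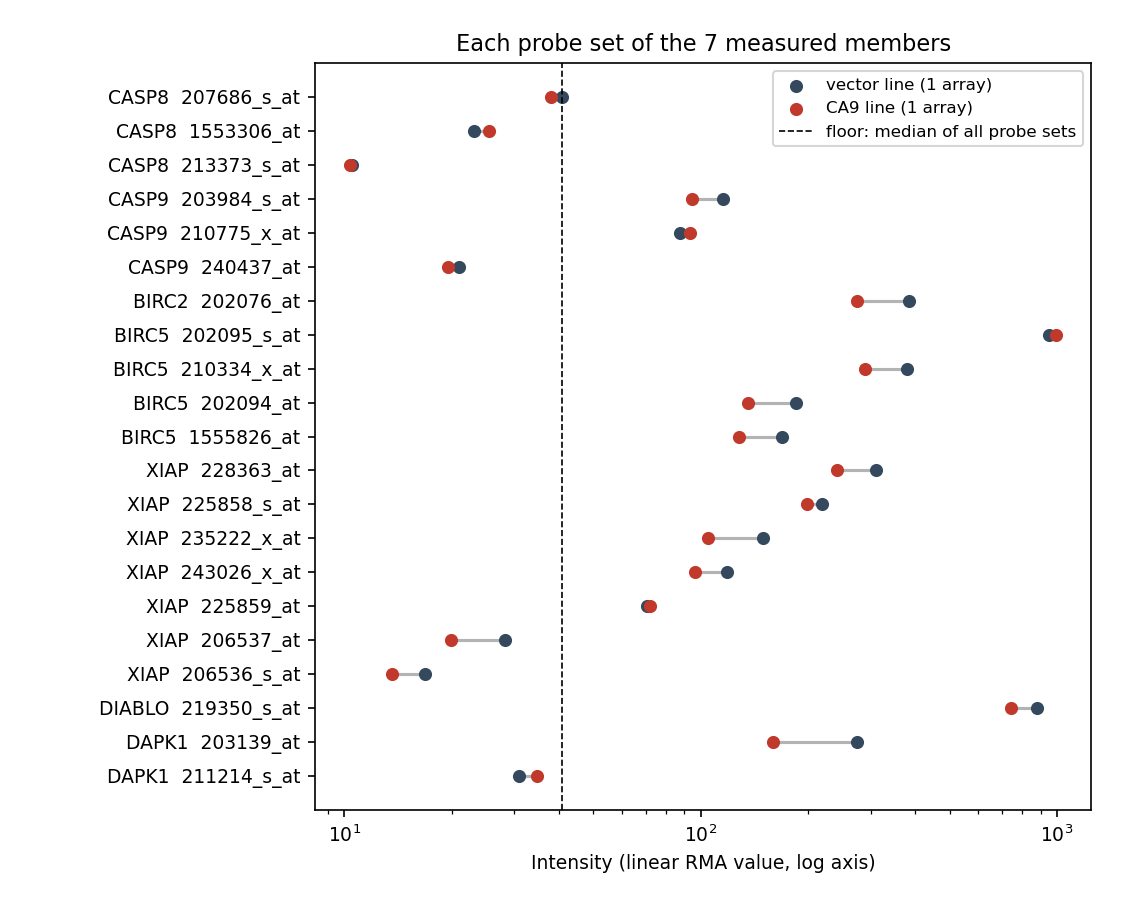
Each row is 1 of the 21 probe sets, with the intensity in the CA9 line (red) and the vector line (dark blue) on a log axis, 1 array each, and the floor of 40.8 as a dashed line. Red points lie left of the blue ones in 11 of the 14 probe sets above the floor, and the 3 exceptions belong to CASP9, BIRC5 and XIAP. Over all probe sets above the floor on at least 1 array, 53.0% were lower in the CA9 line.

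DIABLO had 1 probe set, with 745 in the CA9 line against 879 in the vector line. The difference was -0.24, which is 1.18-fold lower. In size it was within the SD between probe sets over 6186 genes (0.31). It was just above that over the 3 members with more than 1 probe set above the floor (0.23), and DIABLO is not among these. Its position among measurable genes was not extreme, since 25.5% of them had a lower value.

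DAPK1 had the largest difference of the members. Its bright probe set read 159 in the CA9 line against 275 in the vector line. That is 1.73-fold lower, a difference of -0.79. Of all measurable genes 1.74% had a lower value. At 1.5-fold in place of 2-fold DAPK1 would be the only member called, among 10.0% of measurable genes in either direction, 5.29% higher and 4.74% lower. The second DAPK1 probe set was below the floor on both arrays, at 34.8 and 31.0, with a difference of 0.17, so only 1 probe set carries the DAPK1 value.

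The other genes of the pathway were described by 8 lists of 71 genes in all, of which 65 had a probe set and 52 were measurable. None of the 52 differed by 2-fold or more in either direction, against 1.35% of all measurable genes, and 2 of them did at 1.5-fold, against 10.0%. Their median was -0.15 and 33 of them lay below 0, against a median of -0.03 and 53.0% below 0 over all measurable genes. Of the list medians that follow, those of the other caspases (from -0.43 to 0.05), the death receptors (from -0.34 to 0.06), the apoptosome (from -0.04 to 0.13), the passenger complex (from -0.17 to 0.00) and the DAPK family (from -0.05 to 0.13) changed sign or reached 0 over the settings tried.

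Among the other caspases 4 of 10 were measurable, with a median of -0.24. CASP6, an executioner caspase, was farthest below 0, at 106 in the CA9 line against 148 in the vector line, a difference of -0.47, and its second probe set was at -0.29. CASP1, the inflammatory caspase, was farthest above 0 at 0.12, but its other probe set above the floor was at -0.21. Of the other inhibitors of apoptosis 2 of 4 were measurable, with a median of -0.17. BIRC6, a giant ubiquitin-conjugating enzyme, was at -0.40 with a second probe set at 0.16, and BIRC7 was at 0.06.

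Upstream of caspase-8, 10 of 15 death receptor, ligand and adaptor genes were measurable, 7 of them below 0, with a median of -0.23. TNFRSF25 at -0.18 and TNFRSF10A at -0.17 count among the 7 through their brightest probe sets. Their other probe sets above the floor lay above 0, from 0.38 to 0.85 and from 0.09 to 0.26. Both genes were chosen after their values were seen. CFLAR, which encodes the caspase-8 inhibitor c-FLIP, was farthest below 0, at 100.3 in the CA9 line against 141 in the vector line, a difference of -0.50. Its 5 other probe sets above the floor also lay below 0, from -0.75 to -0.01. TNFRSF1A, the main TNF receptor, was farthest above 0, at 72.4 against 56.2, a difference of 0.37. The adaptor gene FADD, which joins death receptors to caspase-8, was at -0.29; FADD was chosen after its value was seen.

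Around caspase-9, 7 of 8 genes of the apoptosome and mitochondrial death factors were measurable, with a median of 0.04 and a range from -0.21 to 0.18. AIFM1, a mitochondrial flavoprotein, was lowest, at 835 in the CA9 line against 967 in the vector line. PGAM5, a mitochondrial phosphatase, was highest at 0.18, with a second probe set at -0.12.

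The TRAF adaptors and related genes of cIAP complexes had 7 measurable members of 8, with a median of -0.30, and 6 of them lay below 0. TRAF6, a ubiquitin ligase of innate immune signalling, was farthest from 0, at 63.5 in the CA9 line against 92.0 in the vector line, a difference of -0.53, while its second probe set was at -0.01. TNIP1, an NF-kB inhibitor, was at 0: its brightest probe set had the same value on both arrays, and its second was at -0.22. OTUD7B, a deubiquitinase, counts among those below 0 through its brightest probe set at -0.39, but its 3 other probe sets above the floor lay above 0, from 0.05 to 0.28; both were chosen after their values were seen.

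Survivin's partners of the chromosomal passenger complex and related genes were all measurable, 7 of 7, with a median of -0.07. AURKB, the kinase of the complex, was lowest at -0.27, with 369 in the CA9 line against 446 in the vector line, and its dimmer probe set was at 0.13. HASPIN, a kinase that recruits the complex to centromeres, was highest at 0.33. In the DAPK family and its partners 6 of 9 genes were measurable, with a median of 0.06. STK17A, a kinase related to DAPK1, was at -0.56 with a second probe set at -0.32, and KLHL20, an adaptor for the degradation of DAPK1, was at 0.55. Among caspase substrates 9 of 10 were measurable, with a median of -0.19. They ran from LMNB1 (lamin B1) at -0.62, with 423 in the CA9 line against 649 in the vector line, to ACIN1, a chromatin-condensing protein, at 0.59.

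**Figure D3:**
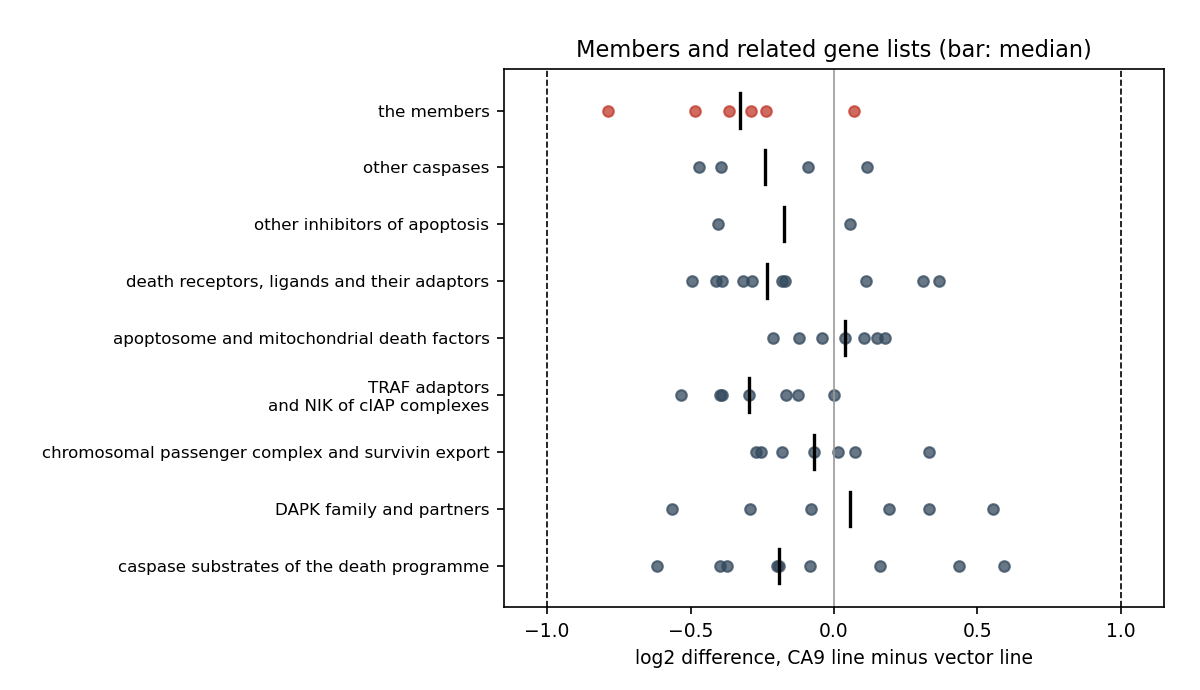
Each point is a measurable gene at its log2 difference, CA9 line minus vector line; the 6 members are in red, the 8 related lists in dark blue, and black bars are medians. No point reaches the dashed 2-fold lines, which 1.35% of all measurable genes reach, and the list medians run from -0.30 to 0.06.

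The alternative ways of processing left the members short of 2-fold, which 1.35% of measurable genes reached under the reported setting. DAPK1 ran from -0.85 with both array medians made equal to -0.31 as an average over both probe sets, the dim one included. BIRC2 ran from -0.55 to -0.38, XIAP from -0.43 to -0.26, DIABLO from -0.30 to -0.16 and CASP9 from -0.35 to -0.10, where each could be measured.

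**Figure D4:**
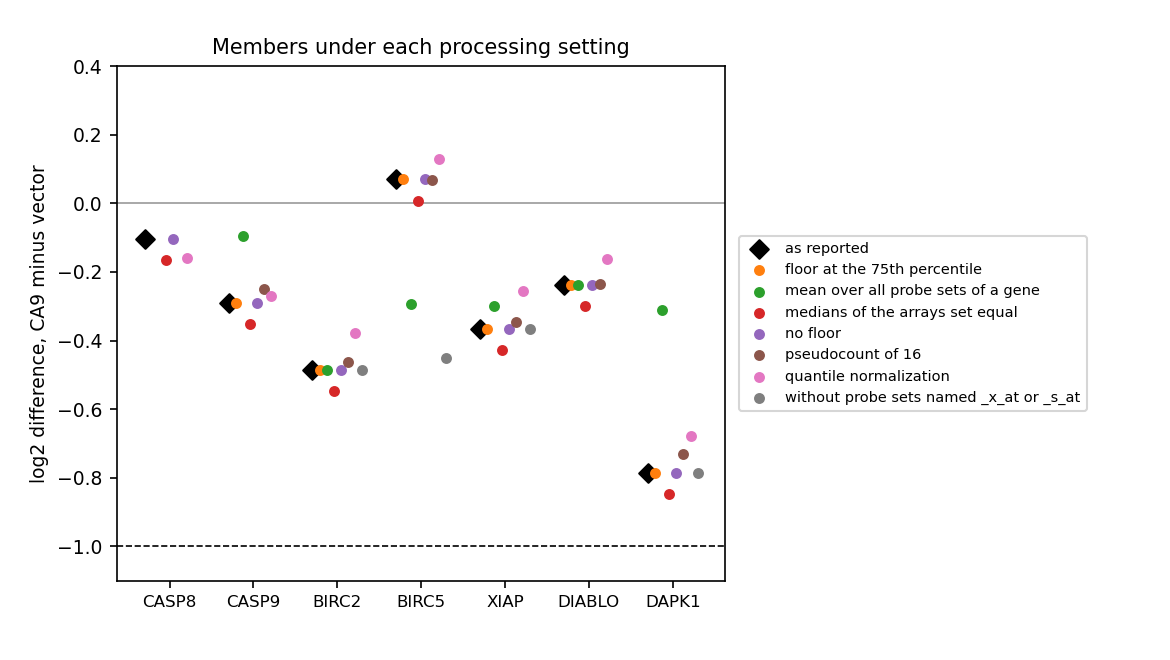
The vertical axis is the log2 difference, CA9 line minus vector line, of each member under the reported setting (black diamond) and the 7 alternatives (coloured points), with a dashed line at 2-fold. BIRC5 lies on both sides of 0, from -0.45 to 0.13; CASP8 is drawn with a diamond at -0.10 although it was below the floor.

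The labels call the cells epithelial. Of 9 epithelial markers 7 passed the floor in at least 1 line, and EPCAM and CDH1 were below it in both. All 6 blood cell markers with a probe set and 7 of 9 fibroblast and endothelial markers passed it too. Passing this floor therefore does not mark a cell type. Summed intensities were 617 in the CA9 line against 518 in the vector line for the epithelial markers, 351 and 316 for the 6 blood cell markers with a probe set, and 3074 and 2841 for 9 fibroblast and endothelial markers, where COL3A1 made up most of the sum at 2538 and 2339. No marker that passed the floor differed by 2-fold, against 1.35% of all measurable genes. The blood cell marker PTPRC came closest, at 30.1 in the CA9 line, below the floor, against 58.1 in the vector line, a difference of -0.95. Of the 6 blood cell markers 4 lay above 0 and 2 below. The part of the markers in the members' values was not tested. The log2 excess of 3' over 5' signal for ACTB, a measure of RNA integrity, was 0.67 for the CA9 line against 0.73 for the vector line. The 18 hybridisation spike-in probe sets were higher on the CA9 array by a median of 0.41. In size this shift was larger than the members' median of -0.33, and its part in the members' values was not tested.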

How the data were processed

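Per the submitters' processing notes the authors used RMA, and the version, background setting and probe definitions are not given in the sources used here. The deposited table holds 1 intensity per probe set and array, on a linear scale as read from its values (6.79 to 17091), with medians of 41.8 for the CA9 line and 40.1 for the vector line. Intensities were put on log2 with no pseudocount. Names came from the platform annotation, updated through Entrez identifiers with the RefSeq table of GRCh38.p14 (41037 of 41091 single-gene probe sets matched).

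The members, lists and rules were chosen with earlier results of these data known. Named were all members, and of each list every gene at 2-fold or, where there was none, the measurable gene farthest from 0 in each direction. Alternatives changed the probe set of a gene, normalization, floor, pseudocount or fold. With 1 array per line no test was run, and the number of arrays limits the precision. Python 3.11.15, numpy 2.4.6, pandas 2.3.3 and matplotlib 3.10.9 were used.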

Additional observations from a re-analysis of the deposited data

How the results depend on the processing

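No member reached 2-fold under the 7 alternatives that kept that size, and 1 of 6 was called at 1.5-fold. Under the reported setting 1.35% of all measurable genes reached 2-fold and 10.0% reached 1.5-fold. The median of the measurable members ran from -0.47, without probe sets named _x_at or _s_at (4 members), to -0.26, after quantile normalization (7 members). Of the members, BIRC5 and DAPK1 moved by more than the SD between probe sets (0.31): BIRC5 to -0.29 as an average over probe sets and to -0.45 when those named _x_at or _s_at were left out, and DAPK1 to -0.31 as an average. For both averages and for BIRC5 the probe sets taken differ by construction. Lists kept their count of 0 genes at 2-fold wherever a member was measurable; the other inhibitors of apoptosis had 7 settings in place of 8. No paired analysis was possible because each line has 1 array. Intensity near the floor limits CASP8.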
